A study of Saccharomyces cerevisiae with 34 samples.

Results

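The genes of trehalose and glycogen metabolism described here were 10 of the 6679 genes in each of the 2 deposited tables of a study of endoplasmic reticulum (ER) stress in Saccharomyces cerevisiae, and they were found in both tables by systematic name. TPS1 (YBR126C) makes trehalose-6-phosphate, TPS2 (YDR074W) removes its phosphate, and TPS3 (YMR261C) and TSL1 (YML100W) are the regulatory subunits of that complex. NTH1 (YDR001C) is the neutral trehalase, which splits trehalose into glucose. GSY1 (YFR015C) and GSY2 (YLR258W) are the glycogen synthase isoforms and GLC3 (YEL011W) is the branching enzyme, while GPH1 (YPR160W, glycogen phosphorylase) and GDB1 (YPR184W, the debranching enzyme) take glycogen apart.

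Trehalose and glycogen are the storage carbohydrates of yeast, and both are made from UDP-glucose. Trehalose is also known as a stress protectant, and several of these genes carry promoter elements for Msn2 and Msn4, the general stress transcription factors. GSY2 is known as the main glycogen synthase of cells near the end of growth on glucose, and GSY1 as the minor isoform. Hac1 is the transcription factor of the unfolded protein response, and its protein is made once Ire1 has spliced HAC1 mRNA.

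Cells of the SK1 background grew in rich glucose medium, and each condition gave an mRNA library and a library of ribosome footprints, the mRNA fragments that ribosomes protect. The deletion experiment held WT cells and cells with HAC1 deleted, each untreated, with dithiothreitol (DTT, a reducing agent that breaks disulfide bonds) at 5 mM, or with Tm (tunicamycin, an inhibitor of N-glycosylation) at 2 µg/mL, in 1 library per group and molecule, 12 libraries in all. The auxin experiment held cells without TIR (no TIR) and with TIR, a plant F-box protein that lets auxin mark a tagged protein for degradation. They were given auxin (500 µM) together with IP6 (4 µM), or their vehicles (DMSO and water), and after 15 min 5 mM DTT was added or not. The groups used here have no vehicle cells without DTT, so each control library without DTT, 1 of no-TIR and 2 of TIR cells per molecule, also had auxin and IP6. Cells were taken at 1 h and 2 h, which gave 2 libraries per group and molecule and 22 in all. Since the design text speaks of cells depleted for Hac1, TIR cells with auxin are called depleted and no-TIR cells with auxin retained. The labels give neither the tag nor the promoter that drives TIR, and name no independent clones of a genotype. The retained cells without DTT have only the 1 h library, so every retained response rests on 1 control library per molecule. The study set mRNA beside footprints to find genes whose mRNA isoforms change in a way that looks like translational control.

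Levels are in RPKM, which counts reads per kilobase and scales them to the library's size. Every change is a difference of log2(RPKM + 1), and translational efficiency (TE) is the footprint level minus the mRNA level of the same cells on that scale. A gene is said to rise or fall at an adjusted p under 0.05 in limma's moderated test, with Benjamini-Hochberg adjustment over all genes tested. Errors are standard errors. The labels do not say whether the libraries at 1 h and at 2 h are separate cultures, so p-values measure only the spread between these libraries, which may be technical. All 10 genes passed the filter, a mean of 5 RPKM or more, for both molecules in both experiments.

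The libraries held an estimated 6.41 to 36.3 M (mega) reads in genes. The labels were checked first. HAC1 mRNA was 2372.2 to 5216 RPKM in WT libraries and 5.43 to 42.1 RPKM in those of the deletion strain. In the auxin experiment HAC1 mRNA does not report on the protein, and KAR2, an ER chaperone and Hac1 target, rose by 3.71 (log2) with DTT in retained and 1.99 in depleted cells. KAR2 mRNA in the deletion experiment was 1440 and 13673 RPKM without and with DTT in WT, and 907 and 1277 in the deletion. Depleted cells thus kept more of the KAR2 rise than the deletion did. The highest level of 5 meiotic genes without stress was 29.1 RPKM of mRNA (ZIP1). Between 1 h and 2 h of DTT the mRNA of 10, 10 and 9 of the 10 genes was higher in retained, TIR vehicle and no-TIR vehicle cells, by medians of 0.73, 0.71 and 0.63 (log2). In depleted cells it was higher for 6 of 10, with a median of 0.01, and the 1 h mRNA library already stood at the level of 2 h. TPS2, for example, was 401 RPKM in that library against 189 to 221 RPKM in the other 1 h DTT libraries. Its part in the comparisons of depleted with retained cells was not tested beyond the values at each hour and those without it, which are given below.

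GSY1 mRNA had the largest fitted rise with DTT of the 10 members in retained cells, and with DTT it was lower in depleted than in retained cells. TSL1 stood higher than GSY1 in the retained 2 h library (2.26 against 2.05 from the 1 h control) and in WT cells of the deletion experiment (2.35 against 2.24). Without DTT, GSY1 mRNA was 35.1 RPKM in no-TIR cells and 31.8 and 36.5 RPKM in TIR cells, where a pair of values is always 1 h and 2 h. With DTT it was 129 and 148 RPKM in retained cells, 124 and 159 in no-TIR vehicle cells and 135 and 167 in TIR vehicle cells, but 54.4 and 54.7 in depleted cells. The 6 DTT libraries with Hac1 lay far above the 2 depleted ones, which in turn lay above the 3 libraries without DTT, with no overlap. GSY1 mRNA rose by 1.84 ± 0.17 (adjusted p = 1.4e-05) in retained and by 0.66 ± 0.13 (adjusted p = 0.0014) in depleted cells. Among 5757 genes tested, 196 had a larger change in retained cells and 1537 in depleted cells. The difference between the responses was -1.18 ± 0.22 (adjusted p = 0.028). It was the only member called for a difference, where 0.921% of all genes were called lower. That call was lost without the 1 h retained DTT library (adjusted p = 0.13), without the 2 h depleted DTT library (0.11), without the 2 h TIR auxin library (0.057), without the replicate block (0.13) and without the filter on low values (0.064), with values from -1.29 to -1.03.

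The direct comparison of depleted with retained cells under DTT did not need the control library. GSY1 mRNA in depleted cells was lower, with a difference of -1.33 ± 0.13 (adjusted p = 0.00015), or -1.23 at 1 h and -1.42 at 2 h. Within the TIR strain, auxin against vehicle under DTT gave -1.45 ± 0.13 (adjusted p = 9e-05). These calls held under every alternative, between -1.46 and -1.20 for the first. As controls, auxin and TIR were each compared alone under DTT, and TIR with auxin was compared in cells without DTT. The last is the depletion treatment without stress, and it rests on the single no-TIR library without DTT. Auxin against vehicle in no-TIR cells under DTT gave -0.02 ± 0.13, TIR against no TIR with vehicle under DTT 0.10 ± 0.13, and TIR against no TIR with auxin and no DTT gave -0.15 ± 0.17. In these 3 controls limma called 0 of 5757 genes (0.00%) for mRNA, with 91, 65 and 136 genes at an unadjusted p under 0.05, 0 of the 10 members among them. For footprints they called 0.00%, 0.00% and 0.0749% of 5338 genes and for TE 0.00%, 0.00% and 0.206% of 5329, again 0 members, with 2 members (GLC3 and GDB1) at an unadjusted p under 0.05 for footprints in the first control and 0 in the others. The members' footprints were all lower with auxin in no-TIR cells, from -0.50 (GDB1) to -0.14 (TPS2) with a median of -0.25, beside 0.02 over all genes.

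Footprints on GSY1 rose less than its mRNA. They were 16.6 RPKM in no-TIR cells and 20.0 and 21.4 RPKM in TIR cells without DTT. With DTT they were 32.2 and 39.6 RPKM in retained cells, 33.3 and 51.3 and 32.9 and 52.6 in vehicle cells without and with TIR, and 22.8 and 25.1 in depleted cells. The depleted values lay only slightly above those without DTT. Footprints rose by 0.88 ± 0.20 (adjusted p = 0.0063) in retained cells, while the value in depleted cells was 0.20 ± 0.16 (adjusted p = 0.3). Depleted against retained cells under DTT gave -0.56 ± 0.16 (adjusted p = 0.069), and auxin against vehicle in TIR cells -0.77 ± 0.16 (adjusted p = 0.028). The first was called under 3 alternatives, an hour term in DTT libraries only (adjusted p = 0.023) and without either TIR auxin library (0.037 and 0.038), and auxin against vehicle in no-TIR cells gave -0.21 ± 0.16 (limma, adjusted p = 0.86).

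As footprints per mRNA, GSY1 stood at 0.474 in no-TIR cells and 0.629 and 0.587 in TIR cells without DTT. With DTT the ratio was 0.249 and 0.268 in retained cells, 0.269 and 0.323 in no-TIR vehicle cells, 0.244 and 0.314 in TIR vehicle cells and 0.419 and 0.459 in depleted cells. All 6 DTT libraries with Hac1 were below all 5 others, and the depleted ones lay between. TE fell by 0.96 ± 0.21 on the log2 scale in retained cells (limma, adjusted p = 0.015), and 78 of 5329 genes had a lower value. This call held under every alternative, from -1.04 to -0.89. The single retained control pair could not be left out, and GSY1 had an estimated 66 footprint reads in it. GSY1 was the only one of the 10 members with a TE change there, where 1.46% of all genes were called lower. In depleted cells the TE value was -0.46 ± 0.17 (adjusted p = 0.059), and the difference between the responses was 0.50 ± 0.27 (adjusted p = 0.6). Under DTT, TE in depleted cells stood 0.77 ± 0.17 (adjusted p = 0.067) from that in retained cells and passed the threshold under 4 of the alternatives, where 33 of 5329 genes had a larger value. Between depleted and retained cells under DTT 0.357% of all genes were called for TE, and 0.131% for the difference of the responses, in each case 0 of the 10 members (1 and 0 at an unadjusted p under 0.05). So the 2 TE responses of GSY1 were not shown to differ.

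**Figure D1:**
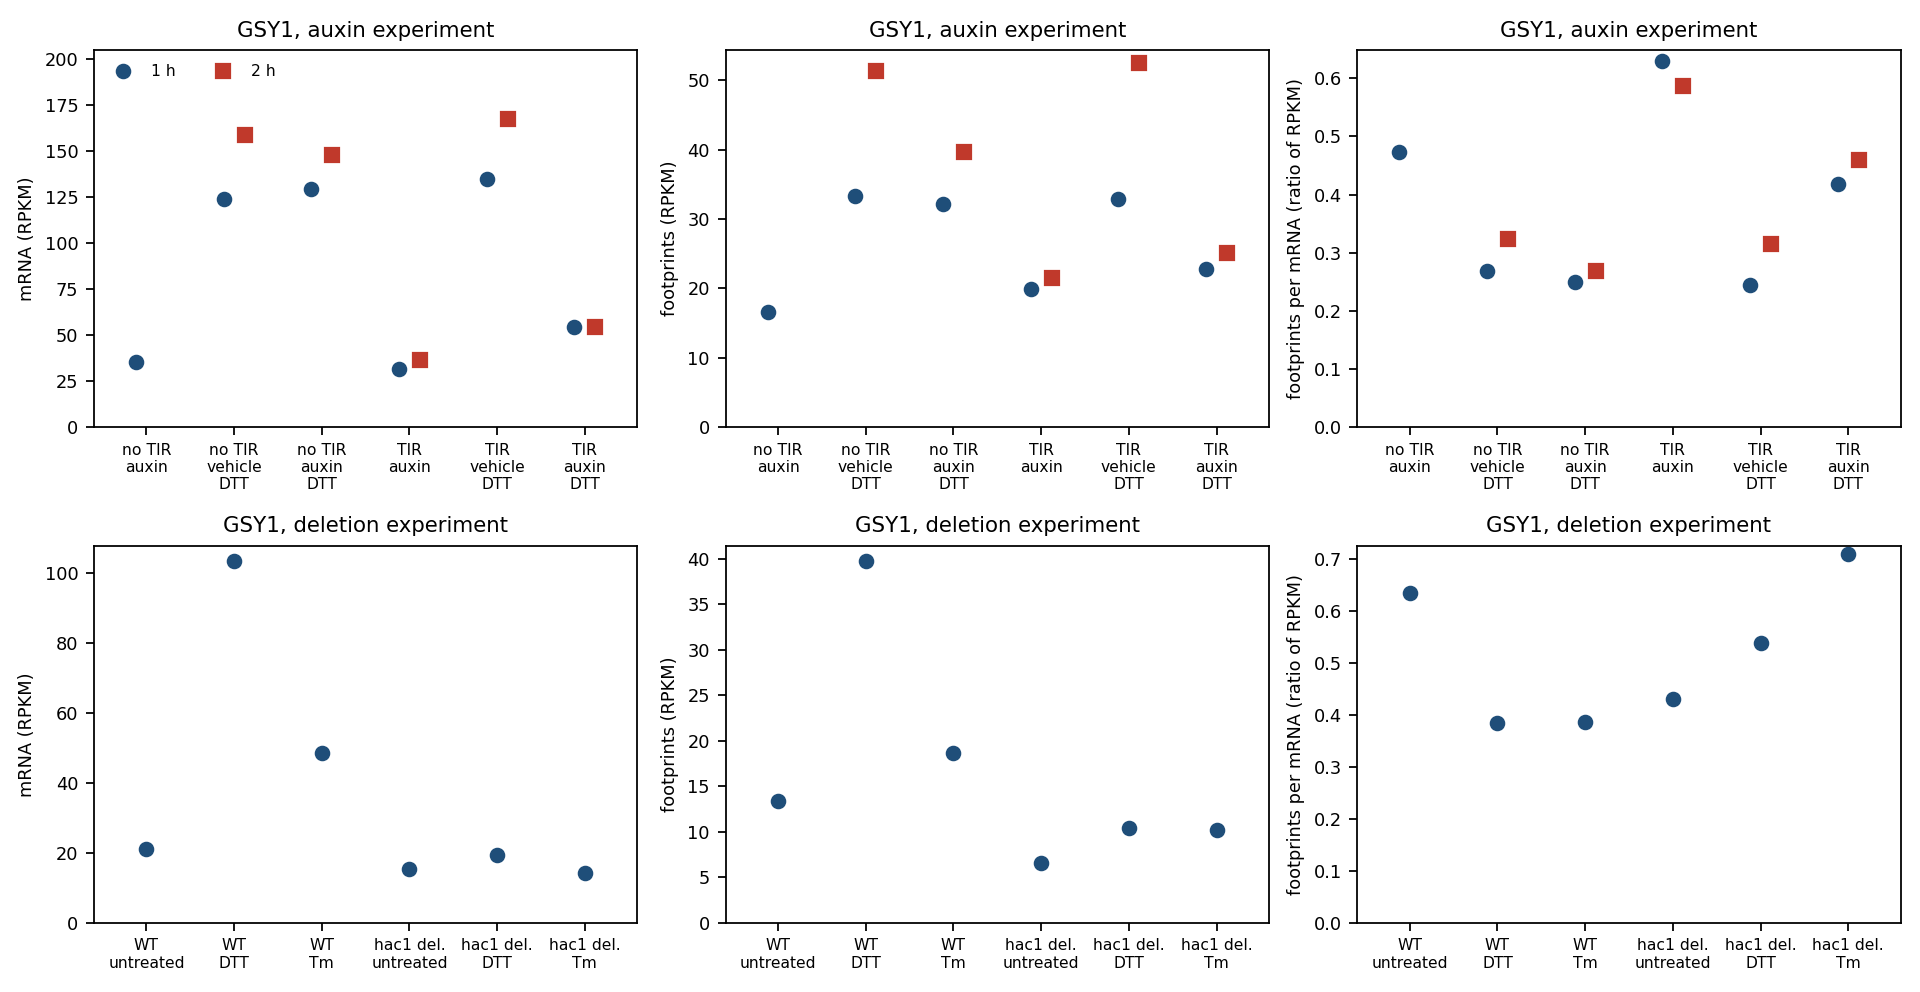
GSY1 mRNA, footprints and footprints per mRNA in every library, with the auxin experiment above (circles 1 h, squares 2 h) and the deletion experiment below (1 library a group). The vertical axes are linear and start at 0, in RPKM or as a ratio of RPKM. The DTT libraries with Hac1 are high for mRNA and low for the ratio. For mRNA the depleted libraries with DTT (54.4 and 54.7 RPKM) lie below them and above the auxin libraries without DTT (31.8 to 36.5 RPKM).

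In the deletion experiment GSY1 mRNA and footprints were again highest with DTT in cells with Hac1. There was 1 library a group and so no test. Unlike depleted cells, the deletion with DTT did not lie above all cells without stress, and stood below untreated WT in both molecules. In WT, GSY1 mRNA stood at 21.0 RPKM in untreated cells, at 103 after DTT and at 48.5 after Tm. In the hac1 deletion it was 15.3, 19.5 and 14.3 RPKM. The log2 differences from untreated cells were 2.24 and 1.17 in WT and 0.33 and -0.09 in the deletion, for DTT and Tm. Footprints were 13.3, 39.8 and 18.7 RPKM in WT and 6.58, 10.5 and 10.1 RPKM in the deletion. As footprints per mRNA, these gave 0.634, 0.384 and 0.386 in WT and 0.430, 0.537 and 0.709 in the deletion. The TE differences were negative in WT, -0.74 with DTT and -0.71 with Tm, and positive in the deletion, 0.27 and 0.65. The TE of GPH1 with Tm in WT was similar, at -0.69. With Tm in the deletion all 10 members lay above 0 in TE, from 0.01 to 0.65. GSY1 had an estimated 72 and 98 footprint reads in WT untreated and with Tm, and 64 and 79 in the deletion. The untreated strains themselves differed in GSY1, by -0.44 in mRNA, -0.92 in footprints and -0.48 in TE (deletion minus WT).

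The share of GSY1 in glycogen synthase mRNA was higher with DTT in cells with Hac1. It was 21.2% of the summed GSY1 and GSY2 mRNA RPKM in retained cells without DTT, and 47.0% and 39.0% at 1 h and 2 h of DTT. In depleted cells it was 19.2% and 19.6% without DTT and 21.7% and 18.8% with it. In footprints the share went from 20.5% to 33.2% and 25.5% in retained cells, and in depleted cells from 21.8% and 21.0% to 18.1% and 17.6%. In vehicle cells with DTT it was 32.2% and 21.4% without TIR and 24.1% and 21.15% with TIR, in part near the values without DTT. In the deletion experiment the mRNA share in WT was 35.0% in untreated cells, 50.8% with DTT and 45.4% with Tm, against 25.1%, 22.0% and 25.2% in the deletion. The footprint share, in the same order, was 55.3%, 55.3% and 57.2% in WT and 36.5%, 34.3% and 40.8% in the deletion. It was thus not higher with DTT in WT. These shares are descriptions, with no test. The isoforms are similar in sequence, and the sources used here do not say how reads that match both were assigned.

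GSY2 was not called with Hac1 retained. Its mRNA was 131 RPKM in no-TIR cells and 134 and 150.2 RPKM in TIR cells without DTT. With DTT it was 146 and 231 in retained, 163 and 323 in no-TIR vehicle, 204 and 348 in TIR vehicle and 197 and 236 RPKM in depleted cells. The highest GSY2 libraries were thus the vehicle ones at 2 h, which have Hac1. The retained response was 0.21 ± 0.24 (adjusted p = 0.5), with 0.16 at 1 h and 0.82 for the 2 h library against the 1 h control, and the depleted response 0.60 ± 0.19 (adjusted p = 0.017) was a call. It was lost without the 1 h depleted DTT library (0.41, adjusted p = 0.17), without the 2 h TIR auxin library (0.35, adjusted p = 0.21) and under 3 other settings. Its footprints per mRNA lay between 0.430 and 0.583 in all 11 pairs of libraries, and the TE value in retained cells was -0.14 ± 0.19 (adjusted p = 0.77). A test of GSY1 against GSY2 was not run.

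Across the 10 members, DTT raised the mRNA of 5 in retained cells, where 28.6% of all genes tested were called higher, and of 10 in depleted cells, where 41.1% were. None was called lower in either. The median member change was 0.61 in retained and 1.18 in depleted cells, beside 0.24 and 0.26 over all genes. The fit takes the difference between the hours as the same with and without DTT. Across genes that difference in mRNA had an r of 0.07 between TIR auxin cells without DTT and the mean of the DTT groups, against 0.44 to 0.70 for each DTT group and the mean of the others. Taken against the 1 h control alone, the retained members lay between -0.69 (GPH1) and 1.85 (GSY1) at 1 h and between 0.20 (GPH1) and 2.26 (TSL1) at 2 h. In these bulk cultures a change in every cell cannot be told apart from one in some cells. The all-gene medians moved with the scaling. Scaled by the median ratio to the libraries' mean, the medians became -0.01 and 0.00, the split over all genes in retained cells went from 1647 higher and 691 lower to 935 and 1063, and in depleted cells from 2364 and 1008 to 1529 and 1567. Under that scaling only GSY1 was called among the members in retained cells, and 8 were in depleted cells.

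The trehalose synthase genes rose in depleted cells, and TSL1 rose in both. TSL1 mRNA was 41.2 RPKM in no-TIR cells and 49.8 and 48.9 RPKM in TIR cells without DTT. With DTT it was 74.9 and 201 RPKM in retained, 98.6 and 207 in no-TIR vehicle, 120.3 and 239 in TIR vehicle and 197 and 194 in depleted cells. The lowest library with DTT was thus above the highest without it, and the 2 h libraries were above the 1 h ones except in depleted cells. TSL1 rose by 1.21 ± 0.38 (adjusted p = 0.026) and 1.96 ± 0.30 (adjusted p = 0.00023) in retained and depleted cells. TPS1, the most abundant member, was 467 RPKM in no-TIR cells and 435 and 457 RPKM in TIR cells without DTT, 606 and 1042 RPKM in retained and 1086 and 1092 RPKM in depleted cells with it. Its responses were 0.56 ± 0.24 (adjusted p = 0.084) and 1.29 ± 0.19 (adjusted p = 0.00019). TPS2 mRNA lay between 137 and 171 RPKM without DTT and between 189 and 401 with it, and TPS3 between 65.9 and 80.3 and between 90.5 and 144. In retained and depleted cells TPS2 gave 0.39 ± 0.30 (adjusted p = 0.32) and 1.34 ± 0.24 (adjusted p = 0.00068), and TPS3 gave 0.33 ± 0.20 (adjusted p = 0.21) and 0.82 ± 0.16 (adjusted p = 0.0011). Thus TPS1, TPS2 and TPS3 passed the test in depleted cells alone, while the difference between the responses was not called for any of them (0.72, 0.95 and 0.50, adjusted p = 0.33, 0.32 and 0.41). Under DTT, depleted stood above retained cells mainly at 1 h, by 0.84 for TPS1, 1.08 for TPS2, 0.60 for TPS3 and 1.38 for TSL1. At 2 h these differences were 0.07, 0.20, 0.07 and -0.05.

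NTH1, which takes trehalose apart, rose along with the synthesis genes. Its mRNA went from 116 RPKM in no-TIR cells and 134 and 119 RPKM in TIR cells to 199 and 379 RPKM in retained and 345 and 411 RPKM in depleted cells. The responses were 0.98 ± 0.29 (adjusted p = 0.021) and 1.57 ± 0.23 (adjusted p = 0.00018). NTH1 and TSL1, of breakdown and of synthesis, thus both rose in both kinds of cells.

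For glycogen, GLC3 and GDB1 rose in both kinds of cells and GPH1 in depleted cells. GLC3 mRNA was 69.1 RPKM in no-TIR cells and 76.0 and 82.1 RPKM in TIR cells without DTT, 105 and 156 RPKM in retained and 150.04 and 188 RPKM in depleted cells with it, with responses of 0.65 ± 0.19 (adjusted p = 0.019) and 1.08 ± 0.15 (adjusted p = 0.00012). GDB1 mRNA was 17.2 RPKM in no-TIR cells and 18.0 and 21.2 RPKM in TIR cells without DTT. With DTT it was 29.7 and 48.2 in retained, 34.9 and 54.9 in no-TIR vehicle, 43.5 and 70.1 in TIR vehicle and 70.8 and 67.9 RPKM in depleted cells. The depleted values resembled those of TIR vehicle cells at 2 h. GDB1 gave 0.88 ± 0.26 (adjusted p = 0.019) and 1.78 ± 0.20 (adjusted p = 3.2e-05).

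GPH1, the phosphorylase, stood on different sides of the controls at the 2 hours. GPH1 mRNA was 35.6 RPKM in no-TIR cells and 39.3 and 39.7 RPKM in TIR cells without DTT. With DTT it was 21.7 and 41.1 RPKM in retained, 28.5 and 72.0 in no-TIR vehicle, 33.3 and 87.3 in TIR vehicle and 60.1 and 75.1 in depleted cells. In the 3 groups with Hac1 the 1 h value was below, and the 2 h value above, the libraries without DTT. The fitted response was -0.63 ± 0.36 (adjusted p = 0.18) in retained and 0.75 ± 0.29 (adjusted p = 0.042) in depleted cells. The retained 2 h library stood 0.20 above the 1 h control. The depleted call was lost without the 1 h depleted DTT library (0.46, adjusted p = 0.31), without the 2 h TIR auxin library (0.27, adjusted p = 0.48) and with an hour term in the DTT libraries only (0.27, adjusted p = 0.34), a setting chosen after seeing the data. It was also lost with median-ratio scaling (0.50, adjusted p = 0.15), without the filter on low values (adjusted p = 0.073) and without the replicate block (adjusted p = 0.23).

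The calls of TSL1, NTH1, GLC3 and GDB1 in retained cells rested on the 2 h library. Without it their adjusted p-values were 0.084, 0.067, 0.057 and 0.065 and GSY1 was the 1 member called. Without the 1 h library TPS1 was called too (0.84, adjusted p = 0.038), which made 6. In a fit without the replicate block, in which the hour has no term, 2 of the 10 were called in retained cells, GSY1 and GDB1.

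Depleted against retained cells under DTT, the mRNA of GPH1 was higher by 1.14 ± 0.29 (adjusted p = 0.039) and that of GDB1 by 0.86 ± 0.20 (adjusted p = 0.03), beside 2.33% of genes called higher, while GSY1 was lower, beside 3.75% called lower. The values at 1 h and 2 h were 1.43 and 0.85 for GPH1, and 1.23 and 0.48 for GDB1. Both calls were lost without the 1 h depleted library (GPH1 0.85, adjusted p = 0.42, and GDB1 0.55, adjusted p = 0.39) and without the 1 h retained library (GPH1 1.07, adjusted p = 0.24, and GDB1 0.70, adjusted p = 0.30). That of GPH1 was also lost without either 2 h library (1.21, adjusted p = 0.074, and 1.43, adjusted p = 0.052). Both were lost, too, without the filter on low values (adjusted p = 0.091 and 0.061) and without the replicate block (0.31 and 0.21). In the control, auxin against vehicle in no-TIR cells under DTT, GPH1 gave -0.59 ± 0.29 (limma, unadjusted p = 0.065), the lowest value of the members, with 61 of 5757 genes lower. Within the TIR strain, auxin against vehicle gave 0.31 ± 0.29 (adjusted p = 0.49) for GPH1 and 0.32 ± 0.20 (adjusted p = 0.32) for GDB1, and GSY1 was the only member called there, beside 4.00% of genes called lower. The 7 members not named in this comparison lay between 0.23 (GSY2) and 0.67 (TSL1), none past the threshold. Their values lay between 0.43 (GSY2) and 1.38 (TSL1) at 1 h and between -0.05 (TSL1) and 0.27 (GLC3) at 2 h.

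**Figure D2:**
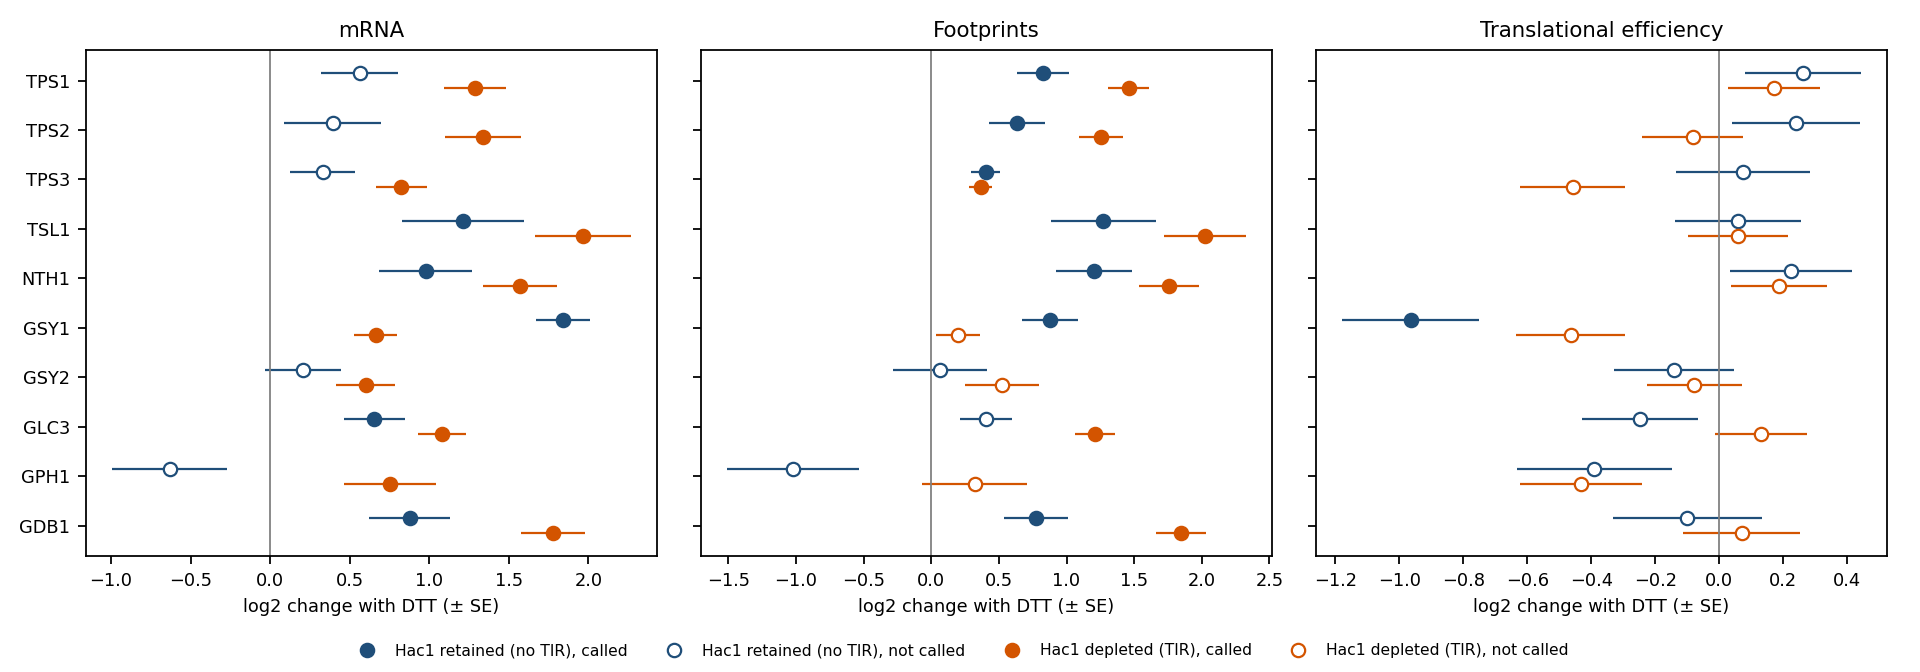
Log2 change with DTT of the 10 members for mRNA, footprints and TE, with Hac1 retained (blue) and depleted (orange). Points are limma estimates, lines are 1 standard error, and filled points passed an adjusted p of 0.05. GSY1 is the member whose retained mRNA change (1.84) lies far above the depleted one (0.66), and the only one with a called TE change.

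Footprints followed the mRNA for most members. In retained cells 7 of 10 rose, where 47.5% of all genes were called higher, and in depleted cells 7 of 10, where 49.6% were. TPS1 footprints were 884 RPKM in no-TIR cells and 789.7 and 854 RPKM in TIR cells without DTT, 1410.0 and 2326 RPKM in retained and 2075 and 2464 RPKM in depleted cells with DTT, which gave 0.83 ± 0.19 (adjusted p = 0.0063) and 1.46 ± 0.15 (adjusted p = 8.3e-05). TSL1 footprints gave 1.27 ± 0.39 (adjusted p = 0.021) and 2.02 ± 0.31 (adjusted p = 0.00055), NTH1 1.20 ± 0.28 (adjusted p = 0.0067) and 1.76 ± 0.22 (adjusted p = 0.00023), and TPS2 0.63 ± 0.21 (adjusted p = 0.028) and 1.26 ± 0.16 (adjusted p = 0.00027). TPS3 rose by 0.40 and 0.37, and GDB1 by 0.78 and 1.85. GLC3 rose in depleted cells by 1.21 ± 0.15 (adjusted p = 0.00021) and gave 0.41 ± 0.19 (adjusted p = 0.097) in retained cells. GSY2 (0.07 and 0.52) and GPH1 (-1.02 and 0.32) were called in neither as fitted. GPH1 footprints were 40.9 RPKM in the 1 h retained control, and 20.2 and 38.3 RPKM in retained cells with DTT. The retained 2 h library was thus near that control. In vehicle cells with DTT they were 18.7 and 76.9 RPKM without TIR and 29.9 and 81.6 RPKM with TIR. These vehicle cells have Hac1, and stood below that control at 1 h and above it at 2 h. GPH1 was called lower in retained cells under 4 alternatives (-1.36 to -1.13, adjusted p from 0.021 to 0.045), and GSY2 higher in depleted cells without the 1 h TIR auxin library (0.86, adjusted p = 0.037). Under median-ratio scaling the split over all genes went from 2537 higher and 782 lower to 1415 and 1424 in retained cells, and from 2649 and 1058 to 1673 and 1778 in depleted cells. It left GSY1, NTH1 and, with a lower value, GPH1 (-1.36, adjusted p = 0.045) as the members called in retained cells. Without the 2 h retained library TPS2, TPS3, TSL1 and GDB1 lost their calls (adjusted p = 0.099, 0.051, 0.067 and 0.056), and without the 1 h one TPS3 (0.051) and GDB1 (0.075) did.

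GDB1 was the only member whose footprints were called between depleted and retained cells under DTT (0.92 ± 0.19, adjusted p = 0.021), beside 3.82% of genes called higher. Leaving out any of the 4 libraries compared ended that call, with values from 0.76 to 1.09 and adjusted p from 0.052 to 0.17, as did leaving out the replicate block (0.43). Auxin against vehicle in TIR cells gave 0.04 ± 0.19 (adjusted p = 0.95) for it, and GSY1 was the only member called, beside 4.81% of genes called lower. By limma the difference of the footprint responses was called for 0 of 10 members, with 5 at an unadjusted p under 0.05, and for 2.49% of all genes. Without the 1 h TIR auxin library 5 were called, TPS1 (0.86), TPS2 (0.94), NTH1 (1.05), GLC3 (1.03) and GDB1 (1.36), all larger in depleted cells.

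TE levels differed between the members, and for some between the experiments. As a percentile of TE among all genes of a library, TPS1, TPS2, TPS3 and TSL1 lay between 83.1 and 97.7 in the 11 auxin pairs and between 69.6 and 96.5 in the 6 deletion pairs. NTH1 lay between 75.1 and 88.3 and between 66.3 and 82.3. GDB1 was like NTH1 in the auxin pairs, between 75.2 and 90.6, and ranged from 14.3 to 77.1 in the deletion pairs. GSY2 was between the 28.5 and 47.2 percentile in the auxin and between 7.34 and 14.7 in the deletion pairs, and GLC3 between 32.1 and 55.8 and between 11.8 and 30.9. The RPKM of the experiments come from separate tables, and these levels were not tested. In the auxin pairs GPH1 went from 81.9 to 82.9 without DTT to 54.9 to 76.8 with it (39.3 to 68.1 in the deletion pairs), although its TE values (-0.39 ± 0.24, adjusted p = 0.46, and -0.43 ± 0.19, adjusted p = 0.11) were not called. GSY1 went from 38.6 to 56.3 without DTT to 8.50 to 32.4 with it. In the deletion pairs the ranges of GSY1 overlapped, 28.9 to 50.95 untreated and 16.4 to 55.6 with DTT or Tm. In depleted cells 0 of 10 members had a called TE change, with 3 at an unadjusted p under 0.05, where 21.1% of all genes did. The value of TPS3 there was -0.46 ± 0.16 (adjusted p = 0.056), and 0.07 in retained cells. It was called under 6 alternatives (-0.64 to -0.46, adjusted p from 0.029 to 0.040), and the TE of GSY1 in depleted cells under 2 (-0.51 and -0.57, adjusted p = 0.044 and 0.030). These counts of alternatives leave out the TE trend over mean TE. The footprints per mRNA of TPS3 in the 2 depleted libraries with DTT were 1.16 and 1.49, against 1.65 and 1.99 in TIR cells without DTT.

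**Figure D3:**
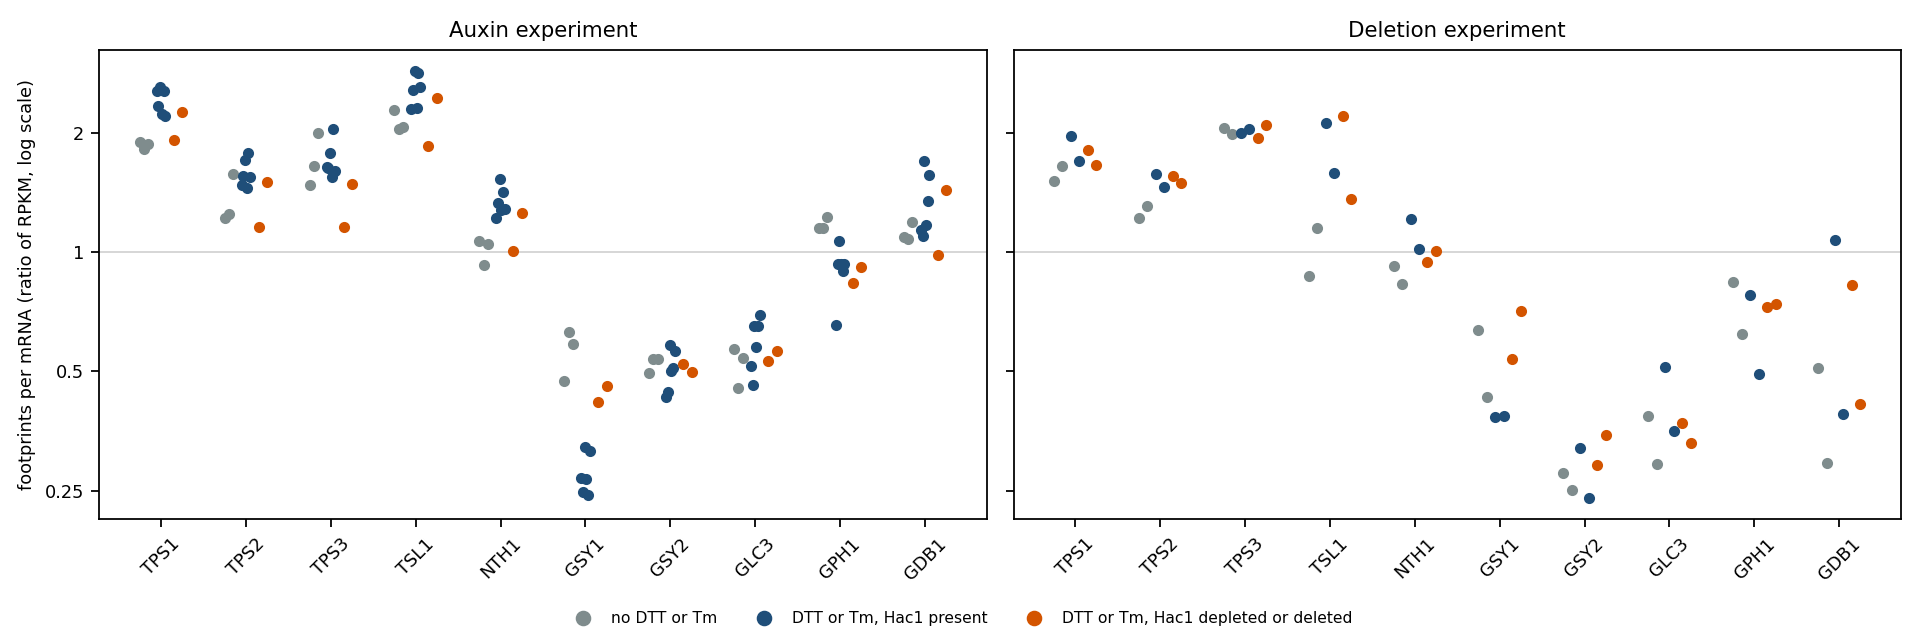
Footprints per mRNA of each member in every pair of libraries, on a log axis, in the auxin (left) and deletion (right) experiments. Grey points are libraries without DTT or Tm, blue points have either agent with Hac1 present, and orange points have it with Hac1 depleted or deleted. The trehalose synthase genes lie above 1 in all pairs but that of TSL1 in untreated WT (0.872), the glycogen synthases below 1 in all, and the blue GSY1 points lie below the grey ones.

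In the deletion experiment DTT gave WT cells higher mRNA of all 10 members. By 2-fold or more, 8 of 10 were higher in WT, where 18.4% of genes were, and 5 of 10 in the hac1 deletion (TPS1, TPS2, TSL1, NTH1 and GLC3), where 9.31% were. TSL1 mRNA stood at 13.4 RPKM in untreated WT cells, at 72.5 after DTT and at 38.0 after Tm, and at 10.8, 35.8 and 13.3 in the deletion. For DTT the log2 differences of TPS1, TPS2, NTH1 and GLC3 were 1.47, 1.33, 1.52 and 1.37 in WT and 1.51, 1.49, 1.38 and 1.33 in the deletion. These 4 were thus about as large in both strains, within 0.2. GSY1 (2.24 against 0.33), GSY2 (1.34 against 0.58), TSL1 (2.35 against 1.64) and GDB1 (1.39 against 0.80) were larger in WT. GDB1 mRNA was low in every library, 8.08 RPKM untreated and 22.7 with DTT in WT, and 14.8 and 26.5 in the deletion. None of these contrasts has a replicate.

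For mRNA, Tm gave smaller values than DTT in WT for all 10 members, and values near 0 in the deletion. In WT, TSL1 (1.43) and GSY1 (1.17) were past 2-fold for mRNA, where 9.70% of genes were higher by that much, and TPS1 (0.85), NTH1 (0.70) and TPS2 (0.63) came next. In the deletion the 10 members lay between -0.24 (GPH1) and 0.28 (TSL1), 0 of them past 2-fold, where 0.755% of all genes were past it in either direction.

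Footprints in the deletion experiment were past 2-fold with DTT for 8 of 10 members in WT, all higher (28.2% of genes in either direction), and 6 of 10 in the deletion (16.2%). TSL1 footprints were 11.7, 154 and 59.95 RPKM in WT untreated, with DTT and with Tm, and 12.4, 78.8 and 18.1 RPKM in the deletion. Its footprints thus differed more than its mRNA, and its TE was higher with DTT by 1.26 in WT and 0.94 in the deletion and with Tm by 0.83 in WT. TSL1 was the 1 member past 2-fold in TE in WT with DTT (1.74% of genes higher), and GDB1 (1.30) the 1 in the deletion (1.21%). In the auxin experiment TSL1 was not called for TE, with 0.06 ± 0.20 (adjusted p = 0.92) and 0.06 ± 0.16 (adjusted p = 0.81). Its footprints per mRNA without DTT were 2.28 in no-TIR cells and 2.04 and 2.07 in TIR cells there, against 0.872 in untreated WT and 1.15 in the untreated deletion. Between the untreated strains 0 of 10 members were past 2-fold in mRNA, where 7.94% of genes were in either direction.

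**Figure D4:**
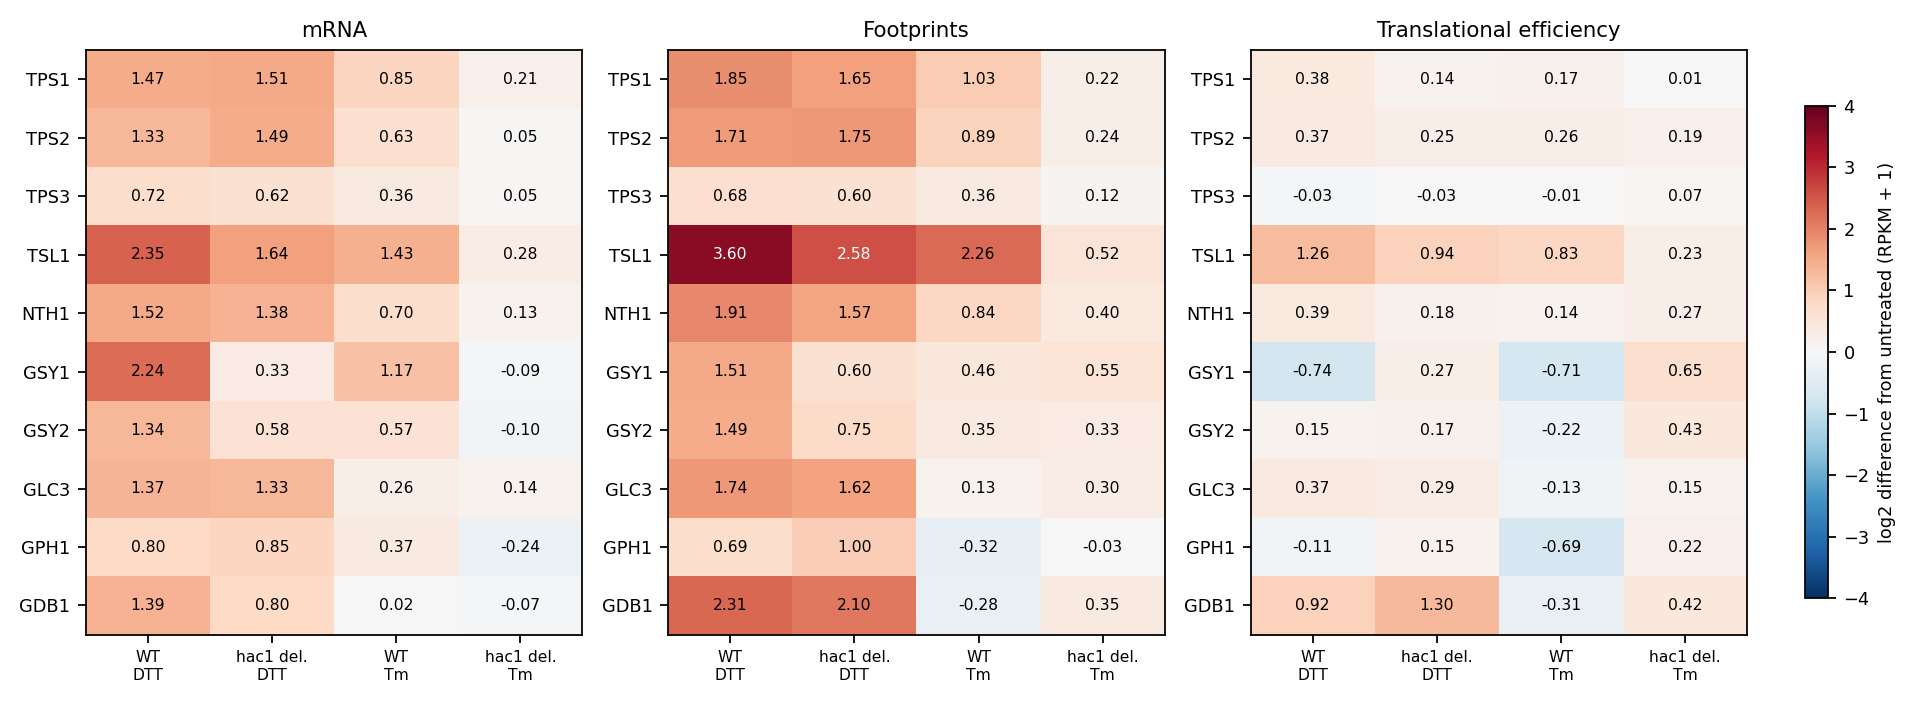
Log2 difference from untreated cells of the same strain for the 10 members in the deletion experiment, as mRNA, footprints and TE, with 1 library a group. Each cell prints its value, and red is higher and blue lower on a shared scale from -4 to 4. GSY1 shows mRNA values of 2.24 and 1.17 in WT and 0.33 and -0.09 in the deletion.

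Another 20 genes of the pathway were examined as a list, of which 19 were tested for mRNA. In retained cells 7 of 19 rose with DTT, beside 28.6% of all genes, and 0 fell. They were SGA1 (1.99 ± 0.34, adjusted p = 0.00094), a glucoamylase known from sporulating cells, the glucose kinases GLK1 (1.62 ± 0.23, adjusted p = 0.00031) and HXK2 (0.88), the phosphoglucomutase PGM1 (0.73), the trehalases NTH2 (0.71) and ATH1 (0.73) and GIP2 (0.84), a putative regulatory subunit of the phosphatase Glc7. In depleted cells these 7 and GLG1 (0.59), a glycogenin, GLC8 (0.63), PIG1 (0.58), PIG2 (0.80), PCL8 (0.80), PHO85 (0.54) and PGM2 (1.24) rose, 14 of 19 beside 41.1% of all genes, and 0 fell. The list's medians were 0.49 and 0.71, and those of all genes 0.24 and 0.26. SGA1, which rose by 0.76 in depleted cells, had the lowest difference between the responses of the 19, -1.23, which was not called (adjusted p = 0.27).

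Footprints of 9 of 17 genes tested rose in retained and of 13 of 17 in depleted cells, and 0 fell. Among all genes 47.5% and 49.6% rose, and the retained count is thus near the share of all genes. The 9 were GLK1 (1.65), GAC1 (1.10), PIG2 (1.07), GLC8 (1.03), GIP2 (0.85), PGM1 (0.82), PCL10 (0.68), HXK2 (0.63) and PCL8 (0.48). In depleted cells these 9 were called too (from 0.39 for HXK2 to 1.36 for GLK1), with ATH1 (1.18), NTH2 (1.05), GLC7 (0.37) and PHO85 (0.39). GAC1, PIG1, PIG2 and GIP2 are known or putative partners that bring Glc7 to glycogen synthase, and the cyclins PCL8 and PCL10 direct the kinase Pho85 to it. In TE 1 of 16 genes was called in depleted cells, where 21.1% of all genes were. It was GLC7, the phosphatase itself (0.59 ± 0.16, adjusted p = 0.015). UGP1, which makes UDP-glucose, GLG2 and HXK1 were called for neither molecule in either response.

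The genes whose mRNA followed GSY1 most closely over the 11 auxin libraries were not members. They were PEX18 (Pearson r of log2(RPKM + 1) = 0.990), OPT2 (0.983), YCR018C-A (0.983), PBI2 (0.981) and ERO1 (0.981) among 5757 genes. ERO1, the ER thiol oxidase and a known target of the unfolded protein response, rose by 3.58 ± 0.17 in retained and 1.62 ± 0.14 in depleted cells. PEX18, a peroxisomal import factor, rose by 3.20 ± 0.24 and 1.51 ± 0.19. The members' own r with GSY1 ran from 0.06 (GPH1) to 0.67 (GLC3). For TE the closest were HEM15 (0.973), YPL247C (0.928), DMA2 (0.922), ARG8 (0.916) and PET18 (0.915) among 5329 genes. The TE of HEM15, which encodes ferrochelatase, fell by 2.53 ± 0.18 in retained and by 1.04 ± 0.14 in depleted cells. The libraries share groups, hours and sequencing depth, so these r describe likeness only.

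The genes on either side of GSY1 on chromosome VI rose in mRNA in both kinds of cells. AIP5 (YFR016C), on the side of the GSY1 start, rose in mRNA by 0.67 ± 0.17 in retained and 1.09 ± 0.13 in depleted cells, and depleted against retained under DTT gave 0.10 ± 0.13 (limma, adjusted p = 0.66). Its footprints under DTT were lower in depleted cells, with a difference of -0.48 ± 0.11 (adjusted p = 0.031). CMK1 (YFR014C), on the other side, is a calmodulin-dependent kinase gene. Its footprints under DTT were higher in depleted than in retained cells, by 0.50 ± 0.10 (limma, adjusted p = 0.017). Its mRNA rose by 0.69 ± 0.18 and 0.88 ± 0.14, and its TE rose in both kinds of cells, by 1.01 ± 0.18 (adjusted p = 0.0027) and 1.60 ± 0.14 (adjusted p = 1.8e-06), the direction opposite to that of GSY1. The sources used here do not say whether counting used strand or where transcripts begin, so reads of a longer transcript that starts outside a gene cannot be told apart from reads of the coding unit.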

How the data were processed

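mRNA-seq and ribosome profiling were run on 34 libraries. The authors deposited 2 tables of 6679 genes, and the values of the deletion table are RPKM per the file headers. The deposited auxin table names no unit, and its values were taken as RPKM from their range and gene set. Per the submitters' processing notes the tools included Bowtie2, CASAVA and bcl2fastq 2.17, with no roles stated. The genome build, the alignment settings and the counting rule were not given in the sources used here. Of the identifiers 5994 matched RefSeq's R64 gene table, used for names, neighbours and gene lengths, and 685 did not. The lengths served the estimates of reads and depth, and depth leaves out genes without a match. Groups came from titles. For the 12 deletion libraries a molecule label says the opposite of title, description and column name, which were followed. Depth was 10.1 to 32.2 M reads in mRNA and 6.41 to 36.3 M in footprint libraries of the auxin experiment. In the deletion experiment it was 15.9 to 18.9 M and 8.31 to 27.4 M. It was estimated from what 1 read is worth with lengths shortened by 60 nt, which made 82.0% to 90.2% of values under 200 reads whole within 0.02. Depth is therefore an estimate, and no count test was run.

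The auxin experiment was fitted with limma 3.58.1 in R 4.3.3 on log2(RPKM + 1), with a mean-variance trend, over genes averaging 5 RPKM or more. The model held the groups and, additively, the hour. This left 4 residual degrees of freedom, and all groups share 1 estimate of spread. The script was tested on simulated data. For TE the trend ran over the mean log2 level of both molecules. With the hour as a shared label, the replicate number pairs libraries taken at the same time. Deviations of same-hour libraries correlated between -0.09 and 0.61 for mRNA, 0.02 and 0.77 for footprints and -0.13 and 0.30 for TE over 10 pairs of groups. Comparisons in the deletion experiment are log2 differences without a test, read against 2-fold.

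The members and gene lists were chosen with earlier results of these data known. Named genes are the members, the pathway genes called in the responses or between depleted and retained cells, the 5 genes most like GSY1 and its neighbours, and HAC1 and KAR2. Promoter and protein sequences were not analysed here. Alternatives were pseudocounts of 0.1 and 5, no filter, median-ratio scaling, no hour term, leaving out each library and, added after seeing the data, an hour term in DTT libraries only and a TE trend over mean TE.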

Additional observations from a re-analysis of the deposited data

Results flagged for a closer look

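The difference between the DTT responses of GSY1 mRNA, depleted minus retained, was -1.18 (log2), and the test of that difference passed its threshold (limma, adjusted p = 0.028). Values under leaving out libraries stand beside the result above.

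For 3 values every library of 1 kind of cell moved one way with DTT and every library of the other kind the opposite way. As a difference between mean library changes, depleted minus retained, these were TPS2 TE (-0.38), TPS3 TE (-0.56) and GPH1 footprints (0.86). That pattern of signs was not tested as such. Depleted libraries were set against the control of the same hour, and both retained ones against the single 1 h control. For GPH1 footprints the retained 2 h library was near that control, with 38.3 against 40.9 RPKM. The vehicle libraries with DTT, which have Hac1, were below it at 1 h (18.7 and 29.9 RPKM) and above it at 2 h (76.9 and 81.6 RPKM). The fitted difference was tested with limma and was not called, with -0.32 ± 0.26 (adjusted p = 0.66) for TPS2 TE, -0.53 ± 0.27 (adjusted p = 0.58) for TPS3 TE and 1.34 ± 0.62 (adjusted p = 0.31) for GPH1 footprints.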

How the results depend on the processing

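The count of members called for mRNA in retained cells was 5 and became 1 with median-ratio scaling and 2 without the replicate block, and for footprints it was 7 and became 3 and 4. Without the filter on low values, and without the replicate block, the mRNA difference was called for 0 members in place of 1 and depleted against retained cells for 1 in place of 3. For footprints of depleted against retained cells, 1 became 0 without the replicate block and 4 with an hour term in DTT libraries only. For TE in depleted cells, 0 became 2 with median-ratio scaling and 1 with the TE trend over mean TE or the hour term in DTT libraries only. For TE of depleted against retained cells, 0 became 1 with a pseudocount of 5 or that hour term. In the deletion experiment the members past 2-fold in TE went from 1 to 2 in WT with DTT (pseudocount 0.1) and from 1 to 0 in the deletion (pseudocount 5).

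Leaving out each library in turn gave 1 to 6 members called for mRNA, 3 to 8 for footprints and 1 for TE in retained cells, and 8 to 10, 7 to 8 and 0 to 1 in depleted cells. The retained responses and the difference of the responses need the single retained control, so it was never left out for them. The difference of the responses ranged over 0 to 2 for mRNA, 0 to 5 for footprints and 0 for TE. Depleted against retained cells ranged over 1 to 3, 0 to 4 and 0 to 1, and auxin against vehicle in TIR cells over 1 for mRNA. Of 4670 single-gene values recomputed, 65 lost a call, 35 gained one and 0 reversed a call, and 166 values that were never called changed sign. The causes were not tested. Precision is limited by 2 libraries per group, by the single retained control, and by low RPKM of GPH1, GDB1 and, in footprints, GSY1.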
